A study of Mus musculus with 6 samples.

Results

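The 10 genes described here encode receptors that sense lipids, bile acids and foreign compounds in the cell nucleus (Ppara, Ppard, Pparg, Rxra, Rxrb, Nr1i2, Nr1i3, Nr1h4 and Nr5a2), with the coactivator Ppargc1a. Their members on the array were all probe sets whose platform annotation names exactly 1 gene and that gene is among the 10, which gave 23 of 45101 probe sets. A further probe set named both Ppard and another gene and was left out. Each of the 6 Affymetrix whole-genome arrays held jejunal RNA of 1 male C57BL/6 mouse. The wild type group was mice 1, 3 and 4, and the double knockout group was mice 1, 2 and 3, which lack TIS7 (Ifrd1) and SKMc15 (Ifrd2). All 6 mice were 7 to 10 weeks old and housed singly on a synthetic diet with 42% of its energy from milk fat and 0.2% from cholesterol, for 3 weeks before the tissue was taken per the extraction protocol and for up to 8 weeks per the design text. The labels give neither the removed exons nor whether the loss was in all tissues.

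Nuclear receptors of this kind bind a small lipid-soluble ligand and then act directly on the transcription of their target genes. The PPARs bind fatty acids and their derivatives and act on DNA as pairs with a retinoid X receptor (RXR), as do FXR (Nr1h4), the bile acid receptor, and PXR (Nr1i2) and CAR (Nr1i3), which sense foreign compounds and raise enzymes that clear them. LRH-1 (Nr5a2) binds phospholipids and acts as a single molecule, and PGC-1alpha (Ppargc1a) binds several of these receptors and is known for raising mitochondrial and fatty acid oxidation genes. In the small intestine PPARalpha is known for driving fatty acid handling in enterocytes during fat feeding.

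Of the 23 member probe sets, 19 were bright enough to test, which meant a log2 value above 4 on at least 3 of the 6 arrays, and all 10 genes kept at least 1. With the threshold set at 0.05 for limma's adjusted p, Ppard rose in double knockout jejunum and none of the others passed. That is 1 higher and 0 lower, or 5.26% of the tested members, against 4.47% of all 18013 tested probe sets (2.54% higher and 1.93% lower), so the share was near the background. At an unadjusted p under 0.05, 1 member was higher and 5 were lower (4 probe sets of Ppargc1a and 1 of Nr5a2), against 15.3% and 11.8% of all probe sets. The groups did not overlap for 8 of the 19 (1 higher and 7 lower), or 42.1% against 34.3% of all tested probe sets (19.5% higher and 14.8% lower). The 7 lower ones were all 5 of Ppargc1a and 2 of Ppara, and probe sets of one gene are not independent. The median log2 fold change was -0.19 over the 19 probe sets and 0.03 over all tested probe sets. With the brightest probe set of each gene it was 0.03 over the 10 genes against 0.05 over all 9674 tested genes, so the lower median over probe sets did not hold over genes.

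**Figure D1:**
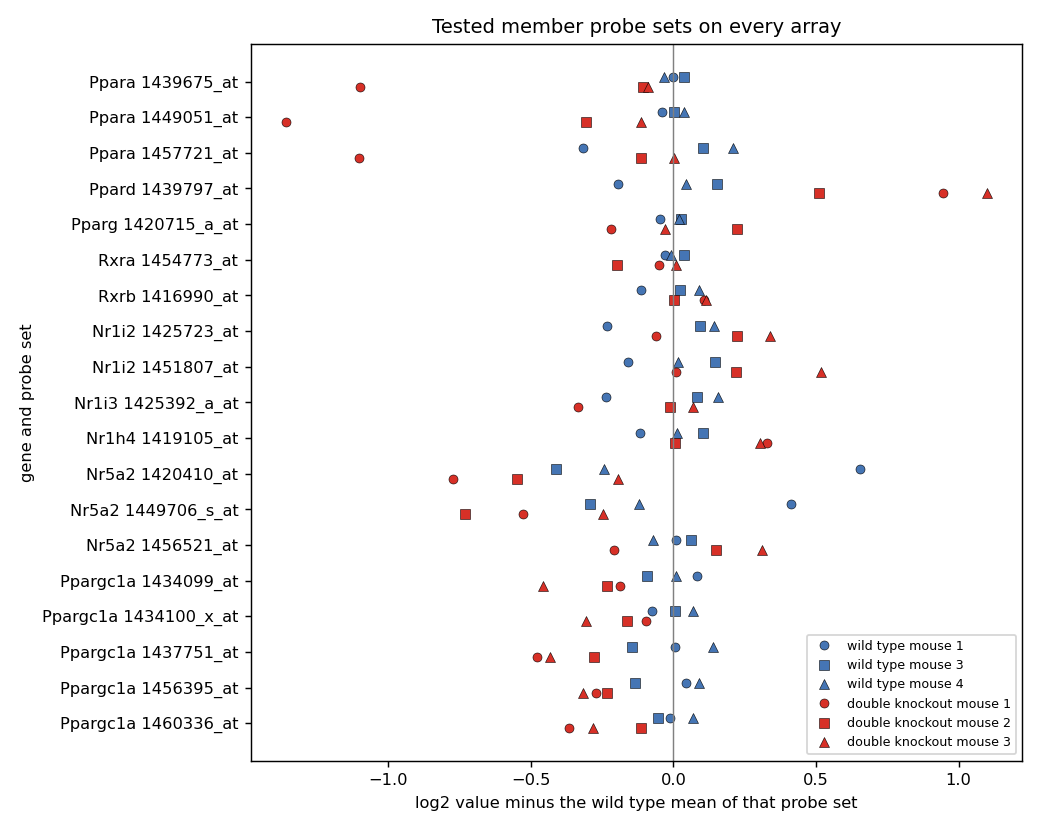
Each point is 1 mouse: the horizontal axis gives the log2 value minus the wild type mean of that probe set, and the rows are the 19 tested member probe sets (blue: wild type; red: double knockout). Ppard lies to the right on all 3 double knockout arrays, the Ppargc1a probe sets lie to the left, and Ppara is far to the left in double knockout mouse 1.

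Both targeted transcripts were low on every double knockout array: the 3-mouse means ± SD of wild type against double knockout were 9.92 ± 0.08 against 5.30 ± 0.83 for Ifrd1, with 6.27 in double knockout mouse 1, and 8.38 ± 0.21 against 2.66 ± 0.08, below the minimum of 4, for Ifrd2. All 10 enterocyte markers were tested, with a log2 summed level of 16.90 to 16.93 in wild type and 16.79 to 16.85 in double knockout mice and 0 past the threshold (median -0.07; 2 lower at an unadjusted p under 0.05, 0 by a linear model without variance moderation). Of their changes, 9 were negative and 1 was positive. The liver markers Alb, Apoh and Cyp7a1 were under the minimum on all arrays. Ttr, also on the liver list, lay between 6.30 and 6.70 in wild type and between 6.17 and 7.26 in double knockout mice. The RNA quality measure (the 3′ minus 5′ difference of control transcripts) lay between 0.35 and 0.49 in wild type and between 0.41 and 0.61 in double knockout mice (exact permutation test, two-sided p = 0.2). No member gene lies on a chromosome that carries Ifrd1 or Ifrd2.

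Ppard encodes PPARdelta, the fatty acid receptor found in most tissues, which in the intestine is known from crypt cells as well as villus cells. On its tested probe set (1439797_at) the log2 values were 7.26, 7.60 and 7.49 in wild type mice 1, 3 and 4 and 8.40, 7.96 and 8.55 in double knockout mice 1, 2 and 3. Every double knockout mouse lay above every wild type mouse, and double knockout mouse 2 was the nearest to the wild type range. The change was 0.85 ± 0.17 (SE) on the log2 scale, or 1.81-fold, with a 95% interval of 0.44 to 1.27 and a limma adjusted p of 0.0489. The other Ppard probe set (1425703_at) lay between 2.40 and 2.67 on all 6 arrays, under the minimum, so the rise rests on 1 probe set. The call lay at the threshold: leaving out wild type mouse 1, 3 or 4 gave a limma adjusted p of 0.130, 0.0805 or 0.141, and leaving out double knockout mouse 1, 2 or 3 gave 0.103, 0.0363 or 0.129, while the change stayed between 0.73 and 1.02. With the RNA quality measure as a covariate the change was 0.52 ± 0.13 with a limma adjusted p of 0.199.

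Markers of crypt and dividing cells, like Ppard, had a higher mean in the double knockout group. Of the 6 listed, 6 had positive changes with a median of 0.36, and Top2a, a topoisomerase of dividing cells, rose by 0.55 ± 0.10 on the log2 scale (limma adjusted p = 0.0344). Top2a was the 1 call by limma, where 3.18% of all tested genes were called higher, and the unmoderated model called 0. At an unadjusted p under 0.05, 3 were higher and 0 lower, against 17.6% and 10.4% of all tested genes. Top2a still passed without double knockout mouse 2 (limma adjusted p = 0.0481) and was lost without any other mouse (limma adjusted p = 0.0702 to 0.126) and with the RNA quality covariate (limma adjusted p = 0.199). Averaged over the 6 and relative to wild type, the values were 0.10, 0.00 and -0.11 in wild type mice 1, 3 and 4 and 0.17, 0.49 and 0.53 in double knockout mice 1, 2 and 3, and the log2 of their summed level ranged from 12.28 to 12.65 in wild type and from 12.67 to 12.82 in double knockout mice. Mouse by mouse the marker mean did not follow Ppard: within the double knockout group, mouse 1 had the lowest marker mean and mouse 2 the lowest Ppard value. The single markers differed in this. Mki67 read 10.17, 9.90 and 10.20 in double knockout mice 1, 2 and 3 and Top2a read 9.42, 9.28 and 9.51, so both were lowest in mouse 2, as Ppard was. Lgr5, Olfm4, Ascl2 and Smoc2 were lowest in mouse 1 within that group. The 6 fibroblast markers also had 6 positive changes, with a larger median of 0.49 and 0 past the threshold by limma (2 higher at an unadjusted p under 0.05, 0 by the unmoderated model); their mean was 0.17, 0.30 and -0.47 in wild type mice 1, 3 and 4 and 0.23, 0.68 and 0.58 in double knockout mice 1, 2 and 3. In whole jejunum, more cells of a type and more RNA per cell cannot be told apart, and the part of these cells in the Ppard change was not tested. Over the 6 arrays, the genes whose values followed Ppard most closely were Sumo3, a ubiquitin-like modifier (Pearson r = 0.999), Supt16, a histone chaperone subunit (r = 0.997), and Utp4, a ribosome assembly factor (r = 0.997). These correlations are a description of 6 arrays that share the split by genotype. The genes were picked for following Ppard on these arrays, so their own changes are no separate result. Utp4 itself rose by 0.63 ± 0.13 (limma adjusted p = 0.0499), and the changes of Sumo3 and Supt16 were 0.19 ± 0.08 and 0.29 ± 0.09 (limma adjusted p = 0.196 and 0.112).

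**Figure D2:**
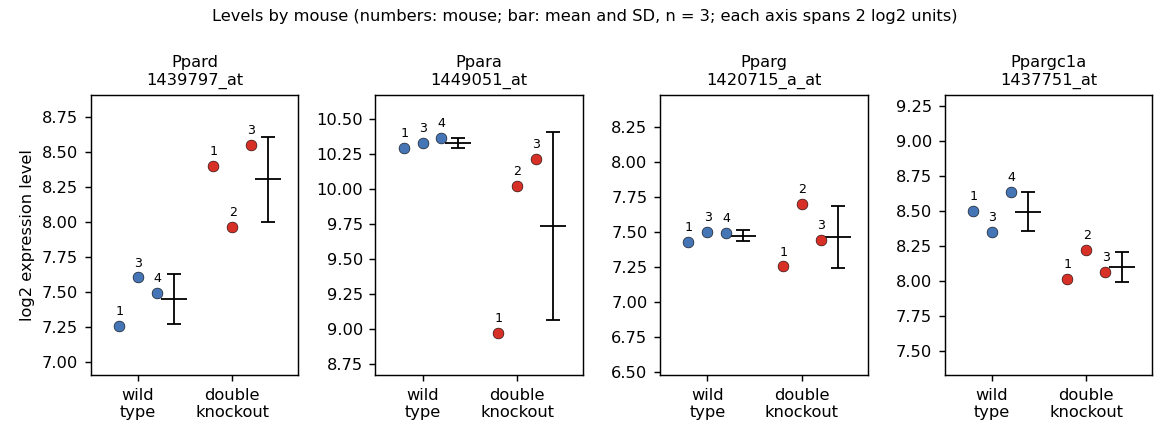
Log2 expression levels of Ppard, Ppara, Pparg and Ppargc1a on 1 probe set each, by mouse, with the mean and SD of 3 mice beside each group. Ppard is higher on all 3 double knockout arrays, Ppara is spread from 8.97 to 10.2 in that group, Pparg overlaps and Ppargc1a is lower without overlap.

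Ppara encodes PPARalpha, the receptor best known for switching on fatty acid oxidation. Its brightest probe set (1449051_at) read 10.3, 10.3 and 10.4 in wild type mice 1, 3 and 4, and 8.97, 10.0 and 10.2 in double knockout mice 1, 2 and 3. The low mean of the double knockout group came from mouse 1: there the probe set lay 2.07-fold below the lowest of the other 5 arrays. The other probe sets gave the same picture, with 8.47 in double knockout mouse 1 against 9.46 to 9.60 on the other arrays (1439675_at) and 7.19 against 7.98 to 8.51 (1457721_at). The log2 changes of the group means were -0.59 ± 0.31, -0.43 ± 0.27 and -0.41 ± 0.31 (SE), and none passed (limma adjusted p = 0.265, 0.341 and 0.431). Without double knockout mouse 1 they were -0.21 ± 0.10, -0.10 ± 0.09 and -0.06 ± 0.18. Double knockout mice 2 and 3 still lay below every wild type mouse on the first 2 of these probe sets, by no more than 0.31 from the wild type mean.

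Within each array, the Ppard value relative to the brightest Ppara value lay between -0.16 and 0.15 of the wild type mean in wild type mice and at 2.30, 0.82 and 1.21 in double knockout mice 1, 2 and 3. The mean shift was 1.44 ± 0.77 (SD, n = 3) on the log2 scale. Relative to Pparg, the shift of Ppard was 1.17, 0.29 and 1.13, with a mean of 0.86 ± 0.50. In both pairs the groups did not overlap, and the exact two-sided permutation p was 0.1, the smallest that 3 against 3 mice allow (0.15 after adjustment over the 3 pairs compared, which were chosen after the values were seen). Ppard alone was higher without overlap and this Ppara probe set lower without overlap, so their difference had to separate the groups. The shift relative to Pparg was close to the change of Ppard alone, 0.85. Neither pair is a result separate from the Ppard change.

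Pparg encodes PPARgamma, the receptor that drives fat cell formation and is also present in gut epithelium. Its values were 7.43, 7.50 and 7.50 in wild type mice 1, 3 and 4 and 7.26, 7.70 and 7.45 in double knockout mice 1, 2 and 3, so the double knockout values lay on both sides of the wild type range. The change was -0.01 ± 0.12 with a 95% interval of -0.31 to 0.29 (limma adjusted p = 0.973), which leaves out changes beyond 0.31 on the log2 scale in either direction. Markers of fat cells were present in the tissue pieces: the fat cell hormone Adipoq ranged from 8.28 to 10.4 in wild type and from 9.53 to 10.1 in double knockout mice, and Lep was above 4 only in wild type mouse 3. The log2 of the summed level of the 3 tested fat cell markers (Adipoq, Cidec and Fabp4) ran from 11.1 to 12.5 in wild type and from 11.9 to 12.5 in double knockout mice. The part of fat cells in the Pparg values was not tested.

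The sequence around the annotated start of 3 of these genes is shown because they are the member past the threshold (Ppard), the related receptor whose mean lay on the other side (Ppara), and the coactivator with the most probe sets below wild type (Ppargc1a). The windows come from RefSeq on GRCm38.p6 and run from 250 bases before to 50 bases after the start, 5′ to 3′ on the strand of the gene: chr17:28232504-28232803 on the + strand for Ppard, chr15:85735526-85735825 on the + strand for Ppara and chr5:51567676-51567975 on the - strand for Ppargc1a. Capitals mark GGGCGG on either strand, the core of a GC box.
Ppard: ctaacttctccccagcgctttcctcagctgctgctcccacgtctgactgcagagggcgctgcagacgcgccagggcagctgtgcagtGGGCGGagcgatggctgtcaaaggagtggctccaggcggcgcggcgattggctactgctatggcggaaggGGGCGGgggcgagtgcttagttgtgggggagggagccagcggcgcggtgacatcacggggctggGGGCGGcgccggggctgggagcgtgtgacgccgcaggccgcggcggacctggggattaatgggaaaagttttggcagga
Ppara: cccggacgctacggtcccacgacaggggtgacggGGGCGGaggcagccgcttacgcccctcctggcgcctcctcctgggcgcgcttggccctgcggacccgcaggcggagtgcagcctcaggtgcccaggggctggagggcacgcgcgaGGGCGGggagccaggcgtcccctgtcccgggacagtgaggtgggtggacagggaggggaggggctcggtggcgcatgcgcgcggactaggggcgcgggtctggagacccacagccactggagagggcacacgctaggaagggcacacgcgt
Ppargc1a: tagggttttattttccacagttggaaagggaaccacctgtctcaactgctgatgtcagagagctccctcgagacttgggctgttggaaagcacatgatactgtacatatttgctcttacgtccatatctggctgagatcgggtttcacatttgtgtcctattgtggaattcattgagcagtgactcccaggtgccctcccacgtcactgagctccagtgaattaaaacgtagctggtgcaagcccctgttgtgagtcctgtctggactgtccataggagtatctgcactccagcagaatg
GGGCGG occurred 3 times in the Ppard window, 2 times in the Ppara window and 0 times in the Ppargc1a window, and 35.7% of all 32851 windows held it. The GC content was 68.3%, 74.7% and 48.7%, against a median of 52.7% over all windows. AGGTCA, the half-site that nuclear receptors bind, was searched on both strands and was in none of the 3 windows. It was in 5 of the 15 windows of the 10 genes (in those of Nr1h4, Nr5a2, Pparg and Rxra), against 16.3% of all windows, and a direct repeat of AGGTCA with a single base between its copies was in 0 of the 15 and in 0.0396% of all. A match or its absence describes these letters only.

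Ppargc1a encodes PGC-1alpha, the coactivator of PPARs and of estrogen-related receptors. All 5 of its probe sets were tested and all 5 had lower values in every double knockout mouse than in any wild type mouse. Of all tested probe sets, 14.8% were lower without overlap. The largest difference was on 1437751_at, with 8.50, 8.35 and 8.63 in wild type mice 1, 3 and 4 and 8.02, 8.22 and 8.06 in double knockout mice 1, 2 and 3. On 1456395_at the values were 9.61, 9.43 and 9.66 against 9.30, 9.34 and 9.25. On both, wild type mouse 3 and double knockout mouse 2 were the nearest to each other. The log2 changes were -0.40 ± 0.11 on 1437751_at, -0.29 ± 0.11 on 1434099_at, -0.27 ± 0.09 on 1456395_at, -0.25 ± 0.10 on 1460336_at and -0.19 ± 0.09 on 1434100_x_at. None passed: the limma adjusted p-values ran from 0.0820 to 0.244. An unadjusted p under 0.05 was reached by 4 of the 5, while 11.8% of all tested probe sets were lower at that level. On 1437751_at the 95% interval was -0.65 to -0.14. The probe sets are annotated to 1 gene and were read in the same 6 mice, so their agreement adds nothing to the number of mice. With the RNA quality measure as a covariate the 5 changes lay between -0.24 and -0.13.

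The RXRs, the partners with which the PPARs, FXR, PXR and CAR bind DNA, showed small differences. The tested Rxra probe set (1454773_at) read 9.28, 9.35 and 9.30 in wild type mice 1, 3 and 4 and 9.26, 9.11 and 9.32 in double knockout mice 1, 2 and 3, a change of -0.08 ± 0.09 (limma adjusted p = 0.592) with a 95% interval of -0.29 to 0.13. Rxrb (1416990_at) read 7.73, 7.86 and 7.93 against 7.94, 7.84 and 7.95, a change of 0.07 ± 0.09 (limma adjusted p = 0.625) with an interval of -0.14 to 0.29. In both genes the groups overlapped, and the intervals leave out changes as large as that of Ppard. The other Rxra probe sets were not tested: 1425762_a_at lay just outside the filter, between 3.75 and 4.02 with 1 array above 4, and 1430497_at lay between 1.73 and 2.09.

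**Figure D3:**
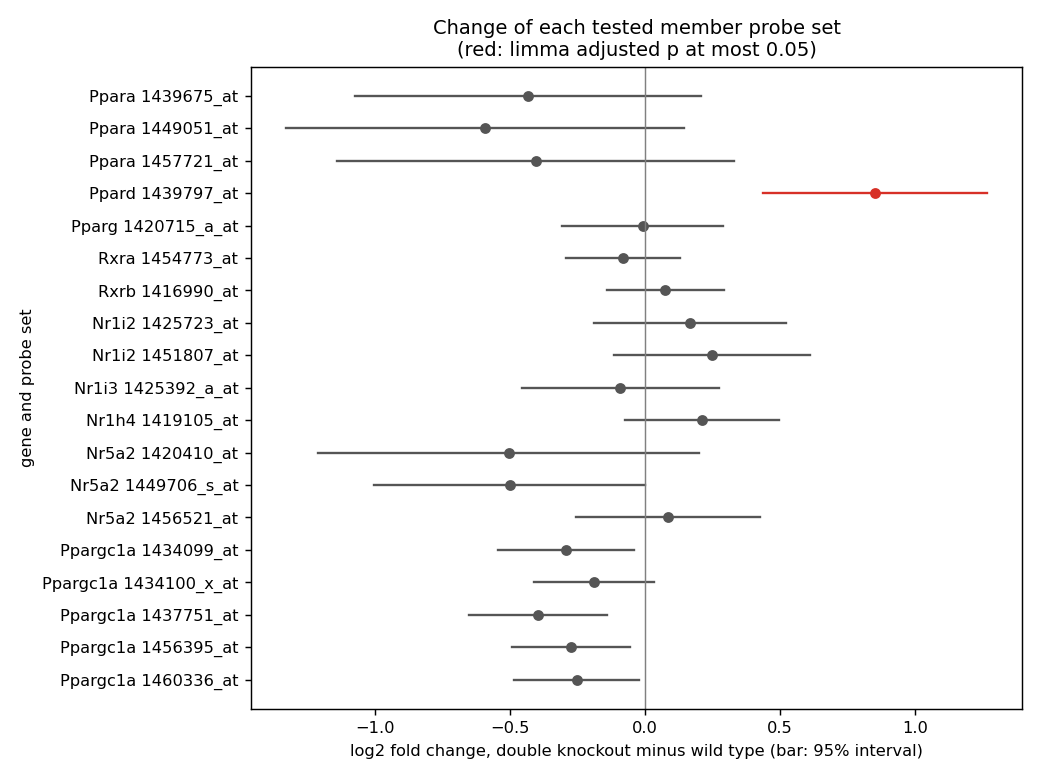
Log2 fold change (double knockout minus wild type, horizontal axis) with its 95% interval for each of the 19 tested member probe sets; red marks those that passed limma's test. Only Ppard is red, and the intervals of Ppara and of 1 Nr5a2 probe set are the widest.

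The receptors for bile acids and foreign compounds overlapped between the groups. Nr1h4, which encodes the bile acid receptor FXR, read 7.44, 7.66 and 7.57 in wild type mice 1, 3 and 4 and 7.89, 7.56 and 7.86 in double knockout mice 1, 2 and 3, a change of 0.21 ± 0.12 (limma adjusted p = 0.298). Nr1i2, which encodes PXR, had values of 9.15, 9.46 and 9.33 against 9.32, 9.53 and 9.83 on 1451807_at, a change of 0.25 ± 0.15, and of 7.93, 8.26 and 8.31 against 8.10, 8.39 and 8.50 on 1425723_at, a change of 0.17 ± 0.15 (limma adjusted p = 0.333 and 0.506). Wild type mouse 1 was the lowest on both Nr1i2 probe sets and double knockout mouse 3 the highest. Nr1i3, which encodes CAR, read 8.35, 8.67 and 8.74 against 8.25, 8.58 and 8.66, a change of -0.09 ± 0.15 (limma adjusted p = 0.725). In both groups mouse 1 had the lowest Nr1i3 value.

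Probe sets of Nr5a2 did not give a single picture. This gene encodes LRH-1, a receptor of crypt and villus epithelium known for acting on bile acid, cholesterol and steroid genes. On 1456521_at the values were 7.85, 7.91 and 7.77 in wild type mice 1, 3 and 4 and 7.64, 7.99 and 8.16 in double knockout mice 1, 2 and 3, a change of 0.08 ± 0.14 (limma adjusted p = 0.730). On 1449706_s_at they were 6.13, 5.43 and 5.60 against 5.20, 4.99 and 5.47, a change of -0.50 ± 0.21 (adjusted p = 0.184 by limma). On 1420410_at they were 6.88, 5.81 and 5.98 against 5.45, 5.67 and 6.03, a change of -0.51 ± 0.30 (adjusted p = 0.316 by limma). On the latter 2 probe sets wild type mouse 1 stood above the other 5 arrays, and without it the changes were -0.30 ± 0.17 and -0.18 ± 0.19. The shift of 1449706_s_at relative to 1456521_at within an array differed between the groups by -0.59, with an exact two-sided permutation p of 0.2. The remaining probe set, 1449707_at, lay between 1.46 and 1.80 and was not tested.

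Genes that work with these receptors were followed on 7 lists, using the brightest probe set of each gene, with 125 different genes tested. Of these, 4 rose and 4 fell by the same threshold; among all 9674 tested genes 4.79% passed, 3.18% higher and 1.6% lower. Without wild type mouse 1, 3 or 4 the number that rose was 1, 1 or 0, and without double knockout mouse 1, 2 or 3 it was 1 each time; the number that fell was 0, 0 or 0 and 1, 4 or 0. Where 1 list gene rose, it was Esrrg, whose call supports nothing for the reason given below, and no other list gene rose. With the RNA quality measure as a covariate, 0 rose and 0 fell.

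**Figure D4:**
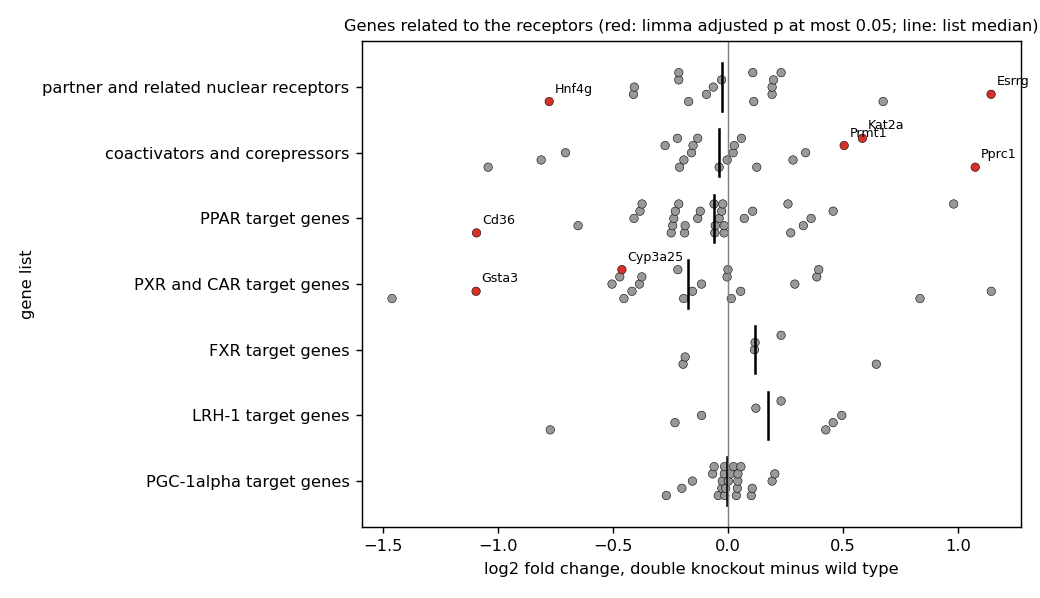
Log2 fold change (double knockout minus wild type) of each tested gene on 7 lists; red points passed limma's test and are named, and the black line is the list median. The 8 named genes are Esrrg, Hnf4g, Kat2a, Prmt1, Pprc1, Cd36, Cyp3a25 and Gsta3, and the medians lie between -0.17 and 0.18.

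Among 17 tested partner and related nuclear receptors, 1 rose and 1 fell and the median was -0.03. Hnf4g, which encodes an enterocyte receptor of the HNF4 family, fell by 0.78 (SE 0.15, limma adjusted p = 0.0412), from 10.5 ± 0.16 to 9.77 ± 0.23 (SD, n = 3), and another of its 3 probe sets also passed; the call was lost without any one of the 6 mice (limma adjusted p = 0.0607 to 0.136). Esrrg, which encodes an estrogen-related receptor that PGC-1alpha activates, had values of 3.08, 3.13 and 3.03 in wild type mice and 4.36, 4.22 and 4.09 in double knockout mice 1, 2 and 3. This probe set met the minimum of 4 only through the double knockout mice, in which it is high, so it had to differ and its call supports nothing; without it 3 of the list genes rose. The values are given as a description: against the minimum they are at least 1.17-fold higher, on 1 of 3 probe sets, and the others were too dim to test. With values under 4 raised to 4 the change was 0.22 (limma adjusted p = 0.187).

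Among 21 tested coactivators and corepressors, 3 rose, 0 fell and the median was -0.04, while at an unadjusted p under 0.05 4 were higher and 4 lower, against 17.6% and 10.4% of all tested genes, and a linear model without variance moderation called 0. Pprc1, a relative of PGC-1alpha, rose by 1.07 ± 0.20 on the log2 scale, from 6.22, 6.46 and 5.98 in wild type mice 1, 3 and 4 to 7.14, 7.05 and 7.68 in double knockout mice 1, 2 and 3. The acetyltransferase Kat2a rose by 0.58 ± 0.09 and the arginine methyltransferase Prmt1 by 0.50 ± 0.09 (limma adjusted p = 0.0401 for Pprc1, 0.0282 for Kat2a and 0.0363 for Prmt1). All 3 calls were lost without any one of the 6 mice, with limma adjusted p-values from 0.0543 to 0.130.

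Of 30 tested PPAR target genes, 0 rose and 1 fell, with a median of -0.06; at an unadjusted p under 0.05, 0 were higher and 5 lower, against 17.6% and 10.4% of all tested genes. The one that fell was Cd36, a fatty acid transporter of the brush border, by 1.09 (SE 0.14, limma adjusted p = 0.0210); its values were 11.4, 11.2 and 11.4 in wild type mice 1, 3 and 4 and 9.97, 10.4 and 10.4 in double knockout mice 1, 2 and 3. All 3 Cd36 probe sets passed in the same 6 mice, with changes of -0.99, -1.09 and -1.44 (limma adjusted p = 0.0265, 0.0210 and 0.00739). On the brightest, whose values are given here, the call was lost when wild type mouse 1, 3 or 4 (limma adjusted p = 0.0737, 0.0522 and 0.0965) or double knockout mouse 3 (limma adjusted p = 0.0541) was left out. Relative to wild type, the mean over the 30 genes was -0.25 in double knockout mouse 1, against -0.02 and 0.06 in double knockout mice 2 and 3 and -0.05, 0.12 and -0.07 in wild type mice 1, 3 and 4. Double knockout mouse 1 had the lowest value of the 6 arrays for 18 of the 30 genes, against 15.3% of all tested genes. Examples, chosen after their values were seen, were Acaa2, a thiolase of fatty acid oxidation, at 11.5 against 11.9 to 12.2 on the other arrays, and Acadl, an acyl-CoA dehydrogenase, at 11.7 against 11.8 to 12.1. Angptl4, a secreted lipase inhibitor, read 7.91 in double knockout mouse 1, within the wild type range of 7.42 to 8.22, and 10.1 in double knockout mouse 3. The PXR and CAR targets were lower still in double knockout mouse 1, and the relation of either list to Ppara was not tested.

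**Figure D5:**
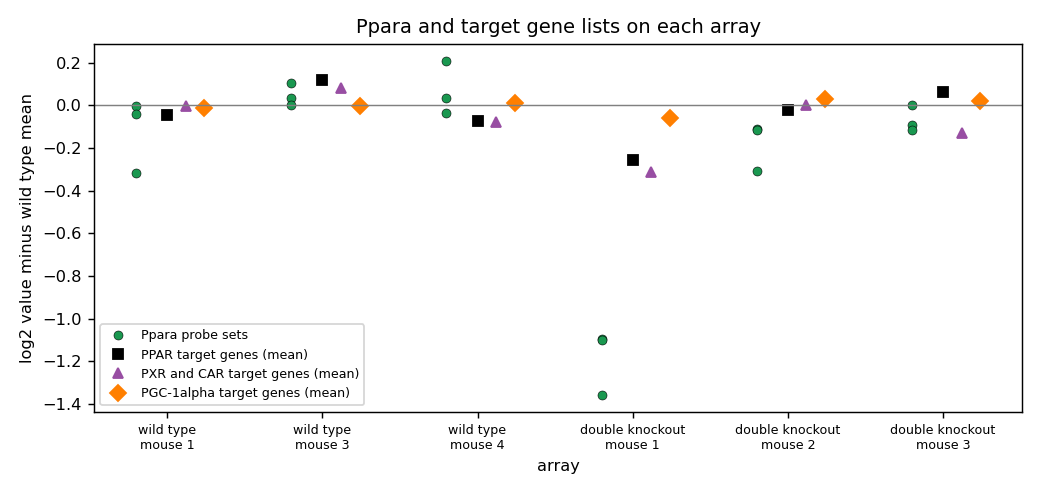
For each of the 6 arrays, the 3 Ppara probe sets and the mean of 3 target gene lists, as log2 value minus the wild type mean. In double knockout mouse 1 the Ppara probe sets lie more than 1 log2 unit below the wild type mean, the PPAR target mean lies at -0.25 and the PXR and CAR target mean at -0.31.

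Of 22 tested PXR and CAR target genes, 0 rose and 2 fell, with a median of -0.17, although the receptors themselves did not pass; at an unadjusted p under 0.05, 2 were higher and 9 lower, against 17.6% and 10.4% of all tested genes. The cytochrome P450 Cyp3a25 fell by 0.46 (SE 0.08) and the glutathione transferase Gsta3 by 1.09 (SE 0.20), at limma adjusted p-values of 0.0344 and 0.0385. The list mean was -0.31, 0.00 and -0.13 in double knockout mice 1, 2 and 3, and between -0.08 and 0.08 in wild type mice. Gsta3 still passed without double knockout mouse 2 (limma adjusted p = 0.0293), where Cyp3a25 did not (limma adjusted p = 0.0537), and without any other mouse neither passed (limma adjusted p = 0.0705 to 0.126).

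The targets of FXR, LRH-1 and PGC-1alpha held no gene past the threshold by limma or by a linear model without variance moderation. Of 12 FXR targets, 6 were tested and 0 had an unadjusted p under 0.05 (median 0.12). The smallest p belonged to the lipid transfer protein Pltp at -0.20 ± 0.11 and the hydroxylase Cyp7b1 at 0.64 ± 0.36 (limma adjusted p = 0.283 and 0.298). The bile acid hormone gene Fgf15 was under the minimum. Of the LRH-1 targets, 8 were tested (median 0.18) and 1 was higher and 2 lower at an unadjusted p under 0.05; the cell cycle gene Ccnd1 stood at 0.42 ± 0.11 and the sterol efflux transporter subunit Abcg8 at -0.77 ± 0.20 (limma adjusted p = 0.0691 and 0.0775). Of 24 tested PGC-1alpha targets, mostly mitochondrial genes, 0 had an unadjusted p under 0.05, 12 changes were positive and 12 negative, and the median was 0.00. The smallest p belonged to Cox7a1, a subunit of cytochrome oxidase, at -0.27 ± 0.12 and to the estrogen-related receptor gene Esrra at 0.19 ± 0.09 (limma adjusted p = 0.193 and 0.212), and all 24 changes lay between -0.27 and 0.20.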

How the data were processed

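Expression was measured on 6 Affymetrix whole-genome mouse arrays, 1 per mouse, from 500 ng RNA, per the labels' protocols. The authors deposited log2 expression levels and GCRMA 2.18.0 is named per the submitters' processing notes, without its settings. This method models background from the probes' base content, so values near the bottom of the scale carry little information. The number of arrays limits the precision.

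Gene names came from the platform annotation, with symbols updated by gene ID to GRCm38.p6 (34958 with 1 symbol, 932 with several, 9211 with none). After 64 control probe sets were removed, those above 4 on at least 3 arrays were kept (18013). The test was limma's moderated linear model (version 3.58.1, R 4.3.3) for double knockout against wild type, two-sided, and p-values were adjusted by Benjamini-Hochberg across the kept probe sets; errors are limma's SE unless given as SD. On simulated data with 18013 probe sets, 8.96% of changes of 0.5, 80.6% of changes of 1 and 100.0% of changes of 2 were recovered, so small changes could be missed. Changes were planted in 67, 67 and 66 probe sets, and 132 probe sets were called in all, against 805 in the data. The adjustment depends on how many probe sets differ, so these shares need not hold for the data.

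Members and gene lists were chosen with earlier results of these data known. Of 226 list entries, 204 had a probe set and the rest were not used here. Named genes were every member, the targeted genes, the genes most like Ppard, and of each list up to 4 that passed or, if none, the 2 of smallest p. Beyond the genes printed with values, markers of goblet, enteroendocrine, fibroblast, smooth muscle and macrophage cells (5, 5, 6, 6 and 5 tested) had 0 genes past the threshold by limma (unadjusted p under 0.05 for 0, 1, 2, 0 and 1) and by the unmoderated model, and medians of -0.02, 0.12, 0.49, 0.04 and 0.31; of the liver and pancreas markers only Ttr (0.35) and Cela1 (0.62) were tested, and neither passed. Figures were drawn with matplotlib 3.10.9.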

Additional observations from a re-analysis of the deposited data

How the results depend on the processing

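Leaving the filter out, centring the medians, a robust variance prior, the mouse number as a block, the RNA quality covariate and a linear model without variance moderation each left 0 member probe sets higher, against 1 (Ppard). Leaving out 1 mouse gave 0 to 1. Ppard kept its direction in all 17 alternatives, between 0.52 and 1.04, and passed in 6, with limma adjusted p-values from 0.0265 to 0.199; the cause of each loss was not tested. The other 18 tested members passed in none of theirs; 3 of the 19 changed sign in at least 1 (Pparg, Nr1i3 and Nr5a2 1456521_at). The median over members stayed between -0.21 and -0.09. Of the list genes, 1 rose without the filter and 0 with the block, the covariate or the unmoderated model, and 0 to 1 without 1 mouse, against 4 with Esrrg counted. Where 1 rose without 1 mouse, it was Esrrg. The number that fell, 4 in the analysis reported, was 1 without the filter, 10 with a stricter filter (a minimum of 6), 13 with an intensity trend in the variance prior, 9 with probe sets averaged per gene, 0 with the block, the covariate or the unmoderated model, and 0 to 4 without 1 mouse. Calls also changed for the targeted Ifrd1, which did not pass in 3 alternatives (limma adjusted p up to 0.103), while Ifrd2 passed in all 17. Ifrd2 met the minimum of 4 only through the wild type mice, in which it is high, so its calls in the filtered fits support nothing. It also passed in the fit without the filter. The mouse number is shared by mice 1 and 3 only, and deviations of same-numbered mice correlated at 0.02 and 0.30, which does not show pairing; with the replicate block Ppard stood at 1.04 ± 0.13 (limma adjusted p = 0.133). Values near or under 4 limit what can be said of the dim probe sets of Ppard, Rxra and Nr5a2.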
